A study of Danio rerio with 24 samples.

Results

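The miR-10 and miR-196 microRNAs were followed as 6 guide strands of zebrafish (dre), dre-miR-10a, dre-miR-10b, dre-miR-10c, dre-miR-10d, dre-miR-196a and dre-miR-196b, chosen by name with every probe that carries one of these names. They were 6 of 231 miRNA names on an Agilent array and 6 of 224 zebrafish names on an Exiqon array. The RNA came from whole wild-type TL zebrafish embryos that were exposed for 1 h, from 30 hours post-fertilization (hpf), to the dioxin TCDD, which activates the aryl hydrocarbon receptor, or to its solvent DMSO. The 4 groups were DMSO at 36 hpf, TCDD at 36 hpf, DMSO at 60 hpf and TCDD at 60 hpf, each with 3 biological replicates on each array type, which gave 12 arrays per platform. Whether same-titled samples on both array types share RNA is not given, so the platforms may not be independent replication. The labels name no transgene or mutation in any group and no dose of TCDD, and a whole embryo mixes all its cell types. In such bulk RNA, fewer cells of a type and less RNA per cell cannot be told apart.

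MicroRNAs are short RNAs that pair with messenger RNAs, mostly in their 3′ untranslated regions, and lower their stability or translation. Genes of the miR-10 and miR-196 families sit within the Hox clusters of vertebrates, whose genes give cells their position along the head-to-tail axis, and both families are known to target Hox messenger RNAs. miR-10 genes lie near Hox genes of paralogue group 4 and miR-196 genes near group 9, and both miRNAs are known from in situ studies of zebrafish embryos to be expressed in the trunk and tail, including the spinal cord.

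All 6 names matched a gene in the RefSeq table of a later zebrafish assembly than the files use, with 7 genes in all, since miR-196a had 2. The nearest protein-coding genes included a Hox gene for 6 of the 7. mir10a lay beside hoxb5b, mir10b-1 between hoxd4a and hoxd9a, mir10c between hoxb5a and hoxb4a, mir196a-1 between hoxc10a and hoxc9a, mir196a-2 between hoxa11a and hoxa3a, and mir196b between hoxb10a and hoxb9a. Several also lay within the annotated span of a gene: mir10a in hoxb1b, mir10b-1 in hoxd3a, mir10c in hoxb3a and mir196a-1 in hoxc3a. mir196a-2 lay within the spans of evx1 and hoxa9a. The gene without a Hox neighbour was mir10d, which lay between lnpk and mtx2 with no Hox gene next to it. lnpk and mtx2 are the genes that flank the HoxD cluster in other vertebrates, and the zebrafish hoxdb cluster is known to have lost its Hox genes and kept mir10d. miR-10d is thus a Hox-cluster miRNA by descent, and not by its present neighbours.

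The Agilent probes are shown because the members of a family are told apart on the array by 1 to 3 bases. Each is the brightest probe of its miRNA, complementary to the miRNA and written 5′ to 3′, and capitals mark bases that differ from the miR-10b probe or, for miR-196b, from the miR-196a probe.
miR-10a: acaaattcggAtctacagg
miR-10b: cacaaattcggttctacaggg
miR-10c: acaaatCcggAtctacag
miR-10d: cacaCattcggttctac
miR-196a: cccaacaacatgaaactacc
miR-196b: cccaacaacTtgaaact
The miR-10a and miR-10b probes differed at 1 of 19 aligned bases, as did miR-10b and miR-10d at 1 of 17. The miR-10c and miR-10d probes differed at 3 of 16, the most within the family, and the miR-196 probes differed at 1 of 17. How far a probe also binds its paralogues was not tested.

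The array annotation placed the probes on the zebrafish build danRer5. The miR-10a probe lay at chr12:20798896-20798913, miR-10c at chr3:20719875-20719891, miR-10d at chr6:11824764-11824779 and miR-196b at chr3:20672597-20672612, each span being 1 base shorter than the probe. The miR-10b probe was mapped to 2 sites, chr23:41169807-41169827 and chr23:35100114-35100134, while the later assembly has mir10b-1 on chromosome 9. Only mir10b-1 was matched here, and the miR-10b value may sum more than 1 gene copy. The miR-196a probe was also mapped to 2 sites, chr19:14022491-14022510 and chr23:35142015-35142034, so the array reads the sum of both gene copies. The Agilent array held 3 probes for miR-10d and 2 for each of the other 5 miRNAs, 13 in all. The Exiqon array held 1 probe for each miRNA, and its probe sequences were not used here.

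On an Agilent array a probe was taken as detected if 0.5 or more of its spots lay well above background, which held for 191 to 277 of the 490 probes, and 134 miRNAs could be tested. On the Exiqon arrays 223 names were tested. Correlations between arrays of a group were 0.991 to 0.999 on Agilent and 0.908 to 0.990 on Exiqon. Exiqon arrays of different stages correlated at -0.61 to -0.50, and the direction of the ratio follows the dyes that the labels state. Of 12 miRNAs that mark muscle, nerve, blood, skin, lens, liver and vessels, 10 were detected on every Agilent array and 12 on every Exiqon array, while the liver marker miR-122 was detected on 5 Agilent arrays and the erythroid miR-144 on 11. A tag in the Exiqon file headers, read here as a scan number, was 2 for all 3 arrays of DMSO at 36 hpf and 1 for all other arrays. Whether arrays with the same number were scanned together is not stated. In the Exiqon comparisons that use the 36 hpf DMSO arrays, the scan number cannot be told apart from the group. The number of arrays limits the precision of every value below.

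All 6 miRNAs were tested on both platforms. Agilent values are log2 of the processed signal after division by the array's 75th percentile, so they show how a miRNA moved against the array and say nothing of one miRNA's amount against another's. Adjusted p-values come from limma, with Benjamini-Hochberg adjustment over all miRNAs tested and a threshold of 0.05, and ± marks the standard error with n = 3 arrays per group. No spot of a member was saturated.

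From 36 to 60 hpf miR-196a and miR-10a fell and miR-10d rose on the Agilent arrays in both DMSO-exposed and TCDD-exposed embryos. The lower 60 hpf values of miR-196b also passed, but that miRNA entered the test through the 36 hpf groups and lay partly at the floor set for dim spots at 60 hpf, so its change is given as a description. Of the 6 members, 5 passed the threshold in DMSO embryos, where 78.4% of all tested miRNAs did, and 5 in TCDD embryos, where 81.3% did. The arrays of the 2 stages did not overlap for 5 of 6 members in each exposure, against 78.4% of all tested miRNAs in DMSO and 84.3% in TCDD embryos. The members' shares lay close to those of the whole array, and nothing is read from them. In each exposure 4 members were called lower and 1 higher at 60 hpf, or 3 lower and 1 higher of the other 5 members without miR-196b, while over all tested miRNAs 32.8% fell and 45.5% rose in DMSO embryos and 31.3% fell and 50% rose in TCDD embryos. The median change of the 5 members other than miR-196b was -0.29 in DMSO and -0.18 in TCDD embryos, against 0.10 and 0.20 for all tested miRNAs, and this is a description of a few members.

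**Figure D1:**
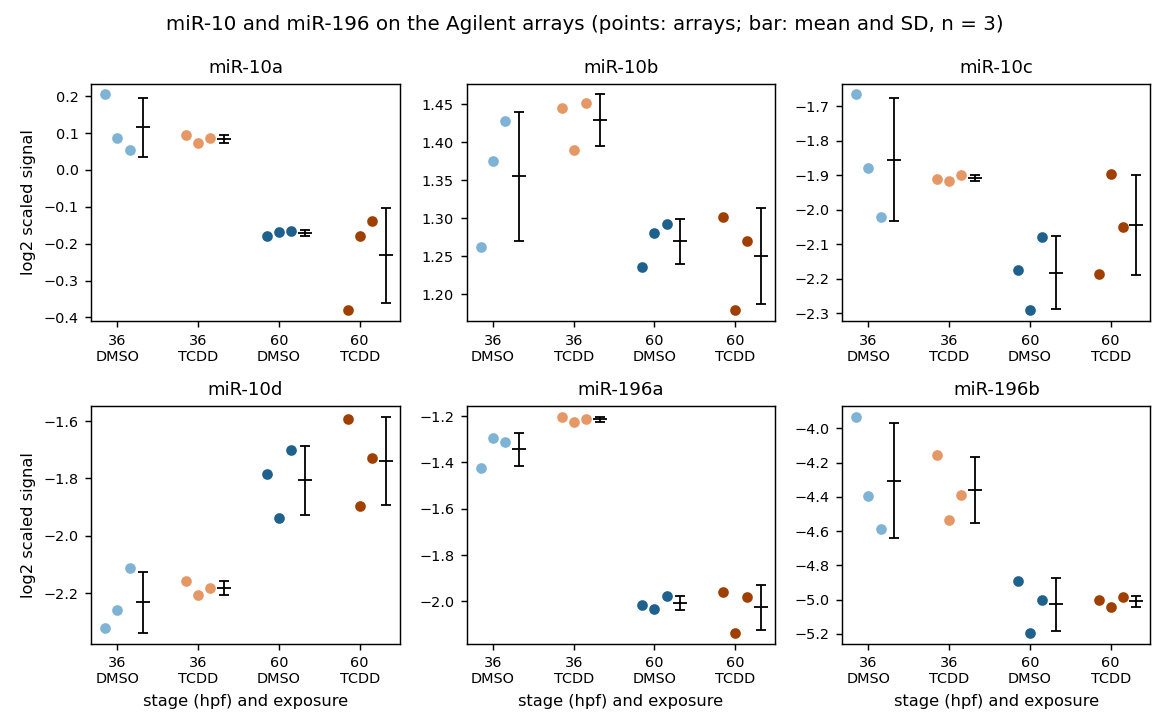
Agilent values (log2 of the scaled signal, vertical axes, 1 scale per miRNA) by stage and exposure, with 1 point per array and black bars for the mean and SD of 3 arrays. For miR-10d all 60 hpf points lie above all 36 hpf points, and for miR-10a, miR-196a and miR-196b all lie below, with miR-196b partly at the floor for dim spots at 60 hpf; with other scalings the miR-10d rise shrank to between 0.013 and 0.12 on the log2 scale.

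dre-miR-10a is encoded beside hoxb5b. On the 3 Agilent arrays of DMSO embryos at 36 hpf its log2 values were 0.21, 0.088 and 0.053, and at 60 hpf they were -0.18, -0.17 and -0.16. In TCDD embryos the values were 0.094, 0.073 and 0.088 at 36 hpf and -0.38, -0.18 and -0.14 at 60 hpf. Every 60 hpf array was lower than every 36 hpf array in both exposures. miR-10a fell by 0.29 ± 0.07 in DMSO (adjusted p = 0.00168) and by 0.32 ± 0.07 in TCDD embryos (adjusted p = 0.000804), and the fall kept its sign and passed the test with the other scalings and background corrections.

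dre-miR-10b, whose matched gene mir10b-1 lies between hoxd4a and hoxd9a, had the smallest Agilent change of the members in DMSO embryos. Its Agilent probe was mapped to more than 1 site, so the value may sum more than 1 gene copy. Its DMSO values were 1.26, 1.38 and 1.43 at 36 hpf and 1.24, 1.28 and 1.29 at 60 hpf, and these ranges overlapped. Its TCDD values were 1.45, 1.39 and 1.45 at 36 hpf and 1.30, 1.18 and 1.27 at 60 hpf, with no overlap. The change was -0.086 ± 0.055 in DMSO (adjusted p = 0.169) and -0.18 ± 0.05 in TCDD embryos (adjusted p = 0.0101), of which only the second passed. Without replicate 1 of DMSO at 36 hpf the change in DMSO embryos was -0.13 and passed (adjusted p = 0.0369). Quantile normalization brought the changes to -0.0066 and -0.091 and neither passed, while a 75th percentile over all probes brought them to -0.42 and -0.50 and both passed.

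dre-miR-10c, of the hoxba cluster, had DMSO values of -1.67, -1.88 and -2.02 at 36 hpf and -2.18, -2.29 and -2.08 at 60 hpf. The 60 hpf arrays were all lower, and the change of -0.33 ± 0.10 passed the test (adjusted p = 0.00756). With outlier spots kept the change, -0.25, missed the threshold (adjusted p = 0.129). In TCDD embryos the values were -1.91, -1.92 and -1.90 at 36 hpf and -2.18, -1.90 and -2.05 at 60 hpf. These ranges overlapped through replicate 2 at 60 hpf, and the change of -0.14 ± 0.10 did not pass (adjusted p = 0.207). Both other scalings made it larger, at -0.53 and -0.46, and past the threshold.

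dre-miR-10d, the member without a Hox neighbour, moved the other way. Its DMSO values were -2.32, -2.26 and -2.11 at 36 hpf and -1.78, -1.94 and -1.70 at 60 hpf. Its TCDD values were -2.16, -2.21 and -2.18 at 36 hpf and -1.59, -1.90 and -1.73 at 60 hpf. Every 60 hpf array was higher than every 36 hpf array. miR-10d rose by 0.42 ± 0.09 in DMSO (1.34-fold, adjusted p = 0.000782) and by 0.44 ± 0.09 in TCDD embryos (1.36-fold, adjusted p = 0.000525). On slide 1 alone the changes were 0.54 and 0.57, and on slide 2 0.37 and 0.38.

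The rise of miR-10d depended on the scaling. With quantile normalization it was 0.058 in DMSO and 0.013 in TCDD embryos, and with a 75th percentile over all probes 0.092 and 0.12, with the same sign but past no threshold (adjusted p = 0.269 to 0.902). Those scalings moved the median change of all tested miRNAs to between -0.18 and -0.11. Relative to that median miR-10d stood at 0.32 in DMSO and 0.25 in TCDD embryos as first scaled, at 0.17 and 0.13 after quantile normalization, and at 0.27 and 0.23 with the percentile over all probes.

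dre-miR-196a, read from gene copies beside hoxc and hoxa genes, had the largest fall in each exposure among the 5 members detected on every array. Its DMSO values were -1.42, -1.30 and -1.31 at 36 hpf and -2.02, -2.03 and -1.98 at 60 hpf. Its TCDD values were -1.21, -1.23 and -1.21 at 36 hpf and -1.96, -2.14 and -1.98 at 60 hpf. The gap between the stages exceeded the range within any group. miR-196a fell by 0.67 ± 0.06 in DMSO (1.59-fold, adjusted p = 4.51e-07) and by 0.81 ± 0.06 in TCDD embryos (1.76-fold, adjusted p = 6.84e-08). Counted from the largest fall among 134 miRNAs, these were places 9 and 5. Slide 1, which held replicate 1 of every group, gave changes of -0.59 and -0.75, and slide 2, with replicates 2 and 3, gave -0.70 and -0.84. The fall passed the test under all 22 alternatives run in each exposure, at -1.02 to -0.59 in DMSO and -1.20 to -0.75 in TCDD embryos.

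dre-miR-196b, which lies between hoxb10a and hoxb9a, was close to background. It was detected on all 3 arrays of each 36 hpf group and on 2 of 3 arrays of each 60 hpf group, so it entered the test through the groups where it was high. Its DMSO values were -3.93, -4.39 and -4.59 at 36 hpf and -4.89, -5.19 and -5.00 at 60 hpf, and its TCDD values -4.15, -4.53 and -4.39 and then -5.00, -5.05 and -4.98. The lowest of these equals the floor of -5.19 set for dim spots, and 20% to 100% of its spots were at that floor on 5 of the 6 arrays at 60 hpf. The fitted falls of 0.72 ± 0.15 in DMSO (adjusted p = 0.00088) and 0.65 ± 0.15 in TCDD embryos (adjusted p = 0.00167) rest in part on that floor. With normexp background correction they were -0.40 and -0.49, and with quantile normalization -1.17 and -1.13, all past the threshold. These settings kept the same detection filter and a floor for dim spots, so their passing adds no support to the fall.

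The dimmer probes of each miRNA had the same sign of change as its brightest probe in every case. The other miR-10a probe moved by -0.48 in DMSO and -0.36 in TCDD embryos, the other miR-10b probe by -0.17 and -0.27, and the other miR-196a probe by -0.53 and -0.70. For miR-10d the shorter probes moved by 0.31 and 0.37 (detected on 11 arrays) and by 0.18 and 0.44 (detected on 6 arrays). The other probes of miR-10c and miR-196b were detected on 3 and 8 arrays, and their changes lay between -0.17 and -0.019. Their group means at 60 hpf, -5.19 to -5.18, lay at or near the floor of -5.19 set for dim spots. The miR-10d probe detected on 6 arrays had means of -5.11 in DMSO and -5.15 in TCDD embryos at 36 hpf, also near the floor. Nothing is read from the sign of these dim probes.

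On the Exiqon arrays the value is log2 of the sample over a pooled reference. From 36 to 60 hpf 2 of 6 members passed in DMSO embryos, against 67.3% of all tested miRNAs, and 3 of 6 in TCDD embryos, against 69.1%. miR-10d passed in both exposures. In DMSO embryos 1 member rose and 1 fell, against 48.9% and 18.4% of all tested miRNAs, and in TCDD embryos 2 rose and 1 fell, against 52% and 17%. The stages did not overlap for 3 of 6 members in each exposure, against 74.4% in DMSO and 70.3% in TCDD embryos. The median change of the 6 was -0.027 in DMSO and -0.036 in TCDD embryos, against 0.11 and 0.14 for all tested miRNAs.

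**Figure D2:**
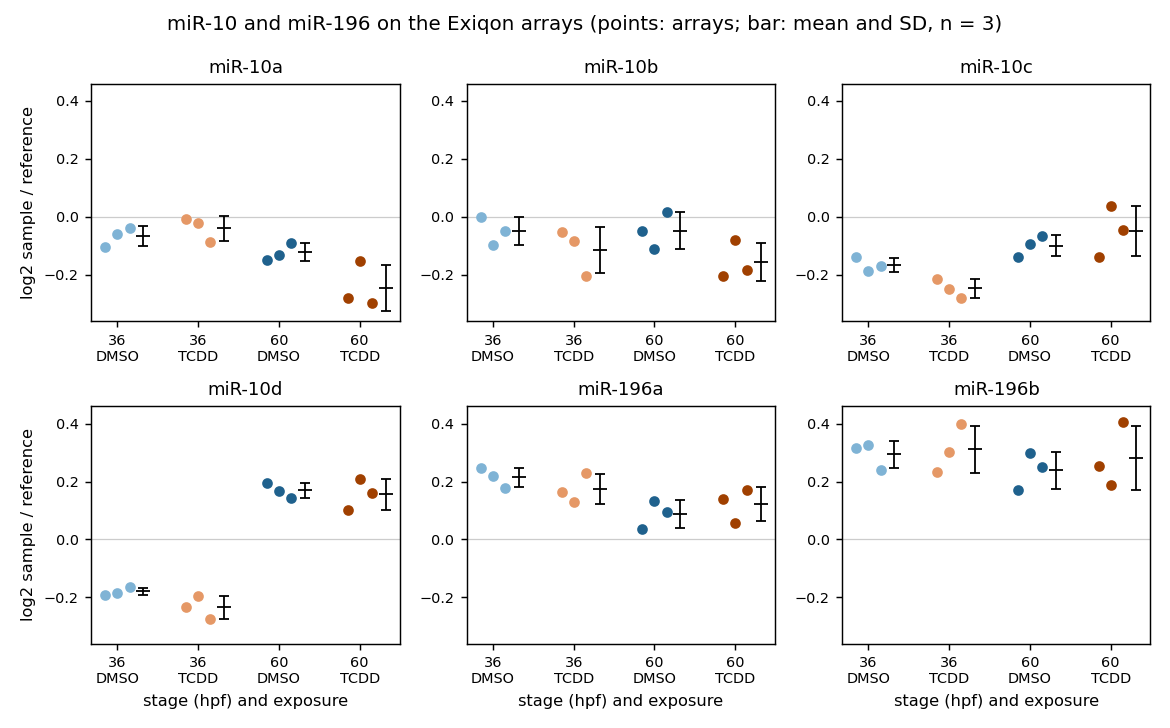
Exiqon values (log2 of sample over reference, vertical axes, 1 common scale) by stage and exposure, with 1 point per array and black bars for the mean and SD of 3 arrays. The miR-10d points rise from between -0.28 and -0.16 at 36 hpf to between 0.10 and 0.21 at 60 hpf, and the miR-10d shift was near 0 with the sample channel alone. In TCDD embryos miR-10a lies lower at 60 hpf by a log2 change of -0.21, which turned to 0.35 with median centring, and miR-10c lies higher by 0.20.

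miR-10d stood at -0.19, -0.18 and -0.16 in DMSO embryos at 36 hpf and at 0.20, 0.17 and 0.14 at 60 hpf. In TCDD embryos it stood at -0.23, -0.19 and -0.28 and then at 0.10, 0.21 and 0.16. The stages did not overlap, and miR-10d was higher by 0.35 ± 0.04 in DMSO (adjusted p = 7.7e-07) and by 0.39 ± 0.04 in TCDD embryos (adjusted p = 2.17e-07). The TCDD arrays were analysed on different days, and the change within them was 0.42 on the first and 0.41 on the second. From the sample channel alone, without the reference, the changes were 0.021 and -0.023 (adjusted p = 0.864 and 0.837), and with median centring 0.68 and 0.81. The sample channel values were also quantile normalized between arrays, so dropping the reference and that normalization cannot be told apart.

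miR-10a had Exiqon values of -0.11, -0.058 and -0.039 in DMSO embryos at 36 hpf and -0.15, -0.13 and -0.089 at 60 hpf. The change of -0.056 ± 0.042 did not pass (adjusted p = 0.257). With the log2 ratios that the authors deposited, the miR-10a change in DMSO embryos was -0.12 and passed (adjusted p = 0.0272). In TCDD embryos its values were -0.0066, -0.022 and -0.088 and then -0.28, -0.15 and -0.30. The TCDD change of -0.21 ± 0.04 passed (adjusted p = 0.000563), and was -0.14 and -0.20 within the first and second image analysis day, but turned to 0.35 with median centring (adjusted p = 0.0539).

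miR-10b stayed between -0.21 and 0.016 on all 12 Exiqon arrays, with changes of 0.0021 ± 0.0498 in DMSO (adjusted p = 0.971) and -0.042 ± 0.050 in TCDD embryos (adjusted p = 0.483). With median centring these were 0.43 and 0.52 and both passed (adjusted p = 0.0358 and 0.0112). With the sample channel alone they were -0.20 and -0.32, of which only the second passed (adjusted p = 0.00746).

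miR-10c changed by 0.066 ± 0.042 in DMSO (adjusted p = 0.186) and rose by 0.20 ± 0.04 in TCDD embryos (adjusted p = 0.000787). Its TCDD values were -0.21, -0.25 and -0.28 at 36 hpf and -0.14, 0.036 and -0.045 at 60 hpf, without overlap. The Agilent change of miR-10c in TCDD embryos had the opposite sign and did not pass. The Exiqon rise was 0.048 with the sample channel alone and did not pass (adjusted p = 0.733).

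miR-196a fell by 0.13 ± 0.04 in DMSO embryos on the Exiqon arrays (adjusted p = 0.0148), from 0.25, 0.22 and 0.18 to 0.036, 0.13 and 0.096, with no overlap. In TCDD embryos its values were 0.16, 0.13 and 0.23 and then 0.14, 0.057 and 0.17, and the change of -0.052 ± 0.041 did not pass (adjusted p = 0.288). The fall in DMSO embryos did not pass without replicate 1 at 36 hpf, at -0.11, or without replicate 1 at 60 hpf, at -0.10, which left 1 of 6 members called in each case. With median centring the change turned to 0.058 in DMSO and to 0.20 in TCDD embryos, of which only the second passed (adjusted p = 0.0207). With the sample channel alone the change in TCDD embryos was -0.26 and passed (adjusted p = 0.0449). Relative to the median of all tested miRNAs miR-196a stood at -0.23 in DMSO and -0.19 in TCDD embryos, and with median centring at -0.25 and -0.22.

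miR-196b changed by -0.055 ± 0.058 in DMSO and -0.030 ± 0.058 in TCDD embryos on the Exiqon arrays (adjusted p = 0.407 and 0.667). Its 36 hpf values were 0.31, 0.33 and 0.24 in DMSO and 0.23, 0.30 and 0.40 in TCDD embryos. With the sample channel alone its changes were -0.096 and -0.26, of which only the second passed (adjusted p = 0.391 and 0.0186). The Agilent change of miR-196a, -0.67 in DMSO and -0.81 in TCDD embryos, was larger in size on the log2 scale than its Exiqon change of -0.13 and -0.052, and a test of that difference was not run because the platforms' scales differ. No sizes are compared for miR-196b, whose Agilent values at 60 hpf lay partly at the floor. For comparison, let-7 is a family that shares sequence with miR-196 and rises during animal development. On Agilent 6 of 6 tested members rose in each exposure, with a median of 2.39 in DMSO embryos. On Exiqon 7 of 10 rose, with a median of 0.78 in DMSO embryos. Of all tested miRNAs 45.5% in DMSO and 50% in TCDD embryos rose on Agilent, and 48.9% and 52% on Exiqon. The Agilent array held 10 let-7 names, and whether the 6 tested entered through the 60 hpf groups, where they were high, was not examined.

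**Figure D3:**
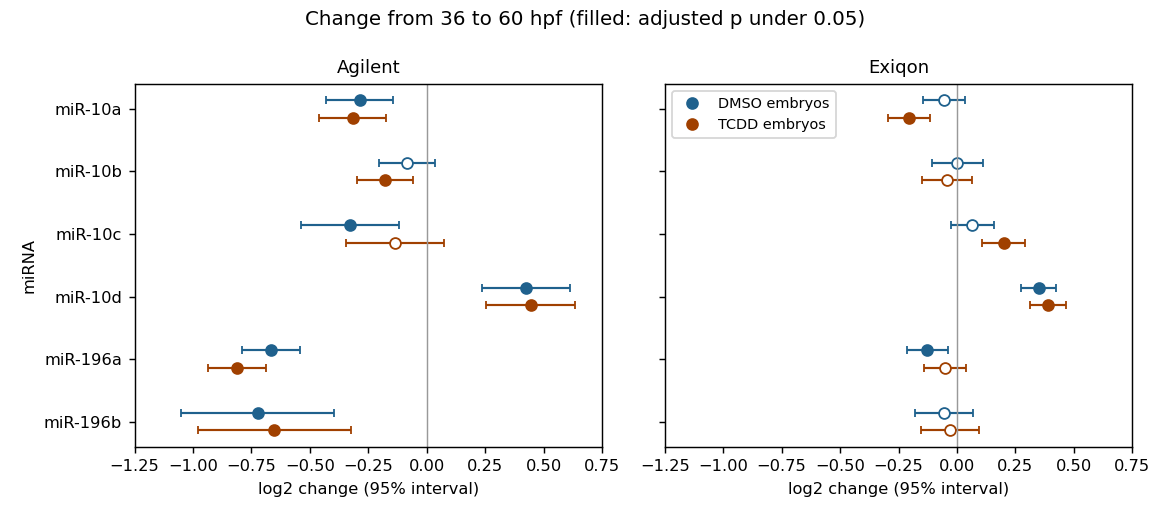
Change from 36 to 60 hpf (log2, horizontal axes) of each miRNA in DMSO and TCDD embryos on each platform; bars are 95% intervals of the fit and filled points passed the threshold. miR-10d lies above 0 on both platforms (0.42 and 0.44 on Agilent, 0.35 and 0.39 on Exiqon), but at -0.023 in TCDD embryos with the Exiqon sample channel alone.

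Division by an array's percentile moves every miRNA of that array together, apart from floored spots, so the paralogues were also compared within arrays. Steps that depend on intensity, such as quantile normalization, do not cancel in such a difference. On Agilent that step brought the miR-10b minus miR-10d change from -0.57 to -0.085, which did not pass. The miR-10a minus miR-10d change still passed with it, at -0.36. The pair comparison is thus not free of the processing. For each pair the log2 difference was taken on each array, and its change between stages was tested with an exact permutation test that permuted the stage within each exposure, with Benjamini-Hochberg adjustment over 7 pairs per platform. The test has 400 arrangements and cannot give a p below 0.005, and it shows unequal change without saying which member moved. Of the 7 pairs, 4 changed unequally on Agilent and 6 on Exiqon. The share over pairs of other miRNAs was not computed, so nothing particular to paralogues is read from these counts.

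All 3 pairs with miR-10d passed on both platforms. On Agilent the miR-10a minus miR-10d difference lay between 2.17 and 2.53 on the 6 arrays at 36 hpf and between 1.21 and 1.77 at 60 hpf, a change of -0.74 (permutation adjusted p = 0.0117, lower on 6 of 6 arrays than on any at 36 hpf). On Exiqon the same difference lay between 0.085 and 0.23 at 36 hpf and between -0.46 and -0.23 at 60 hpf, a change of -0.50 (permutation adjusted p = 0.00875). The stages did not overlap on either platform.

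For miR-10b minus miR-10d the ranges were 3.54 to 3.63 and then 2.89 to 3.22 on Agilent, a change of -0.57, and 0.069 to 0.19 and then -0.34 to -0.13 on Exiqon, a change of -0.39. For miR-10c minus miR-10d they were 0.094 to 0.66 and then -0.59 to 0.00027 on Agilent, a change of -0.67, and -0.054 to 0.051 and then -0.33 to -0.17 on Exiqon, a change of -0.24. These 4 comparisons passed with the same permutation adjusted p as the first pair on each platform, which is what the smallest p gives after adjustment. No range at 60 hpf overlapped the one at 36 hpf.

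The Exiqon changes against miR-10d were also negative in TCDD embryos alone, whose arrays carried the same scan number, at -0.60 for miR-10a, -0.43 for miR-10b and -0.19 for miR-10c. Within each Agilent slide and exposure all 12 changes were negative, from -1.05 to -0.45, and within each Exiqon day of image analysis all 9 were, from -0.61 to -0.15. These values are not separate from each other, as the pairs share the miR-10d value of each array. Slide 1 held 1 array per group. All Exiqon DMSO arrays were analysed on the first day, so their changes within that day are the DMSO comparison itself. Across the alternatives, miR-10a against miR-10d passed in all 16 on Agilent (-0.79 to -0.36) and all 18 on Exiqon (-0.55 to -0.34). miR-10b against miR-10d did not pass with quantile normalization on Agilent, at -0.085 (permutation adjusted p = 0.187), and miR-10c against miR-10d turned to 0.073 with the Exiqon sample channel alone (permutation adjusted p = 0.205).

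**Figure D4:**
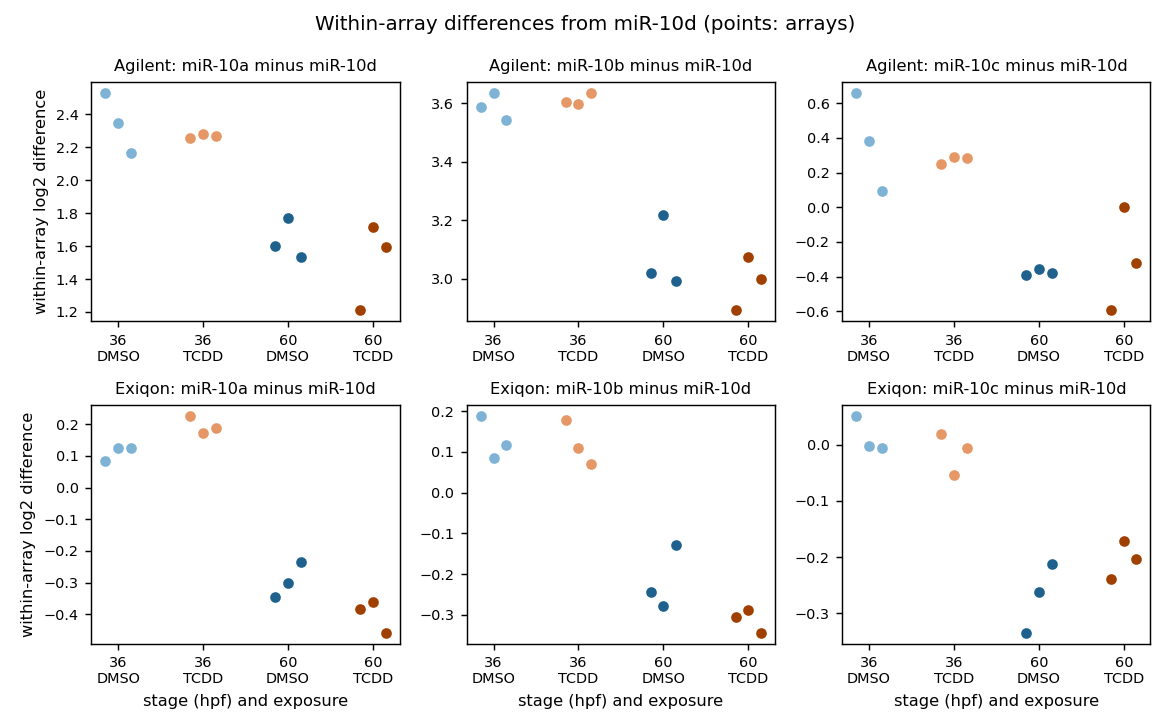
Within-array log2 differences (vertical axes, 1 scale per panel) of miR-10a, miR-10b and miR-10c from miR-10d by stage and exposure, with 1 point per array. In all 6 panels every 60 hpf array lies below every 36 hpf array; the changes are -0.74, -0.57 and -0.67 on Agilent and -0.50, -0.39 and -0.24 on Exiqon, and only the last of these changed sign, to 0.073, with the sample channel alone.

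Among the other miR-10 pairs, miR-10a fell relative to miR-10b by 0.17 on Agilent and by 0.11 on Exiqon (permutation adjusted p = 0.0175 on each). The ranges of the stages overlapped on both platforms, from -1.38 to -1.06 at 36 hpf and -1.68 to -1.36 at 60 hpf on Agilent. The Agilent call was lost in 7 of 16 alternatives, 6 of them with 1 array left out, and its sign was kept in all 16. The Exiqon change kept its sign in all 18 alternatives. It did not pass with the sample channel alone, at -0.081 (permutation adjusted p = 0.205). On the first image analysis day only, with 1 TCDD array at 60 hpf, it was -0.093. miR-10a against miR-10c changed by -0.26 on Exiqon (permutation adjusted p = 0.00875) and by -0.070 on Agilent (permutation adjusted p = 0.378), and miR-10b against miR-10c by -0.15 on Exiqon (permutation adjusted p = 0.014) and 0.099 on Agilent (permutation adjusted p = 0.461). These Agilent changes depended on the processing. With quantile normalization they were 0.28 and 0.56 and both passed (permutation adjusted p = 0.007 for each). On the mean of all probes miR-10a against miR-10c passed in the other direction, at -0.22 (permutation adjusted p = 0.00875). miR-196a and miR-196b did not pass, with changes of -0.051 on Agilent (permutation adjusted p = 0.735) and -0.047 on Exiqon (permutation adjusted p = 0.11). On the mean of all their probes, which adds a miR-196b probe detected on 8 arrays, the Agilent change was -0.26 (permutation adjusted p = 0.028). Both Agilent values rest on 60 hpf values of miR-196b that lay partly at the floor, so nothing is read from either.

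TCDD changed none of the 6 miRNAs past the threshold at either stage on either platform. At 36 hpf 0 of 6 passed on Agilent, where 0.746% of all tested miRNAs did, and 0 of 6 on Exiqon, where 0.448% did. At 60 hpf 0 of 6 passed on Agilent (background 4.48%) and 0 of 6 on Exiqon (background 6.73%), all by limma. At an unadjusted p under 0.05 the count was 1 on Agilent at 36 hpf, 0 on Agilent at 60 hpf, 0 on Exiqon at 36 hpf and 2 on Exiqon at 60 hpf. Over all tested miRNAs the counts at 36 and 60 hpf were 7 and 13 of 134 on Agilent and 17 and 56 of 223 on Exiqon. The TCDD and DMSO arrays did not overlap for 1 member on Agilent at 36 hpf (background 17.2%), 0 at 60 hpf (11.9%), and for 2 members at 36 hpf and 1 at 60 hpf on Exiqon (25.8% at each stage).

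miR-196a at 36 hpf had the lowest unadjusted p among the members on Agilent, with TCDD values of -1.21, -1.23 and -1.21 above the DMSO values of -1.42, -1.30 and -1.31. The difference was 0.13 ± 0.06 (95% interval 0.0041 to 0.25, adjusted p = 0.778), at 0.22 on slide 1 and 0.085 on slide 2. On Exiqon the difference was -0.040 ± 0.041 (adjusted p = 0.754).

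miR-10a at 60 hpf had the lowest adjusted p among the members on Exiqon, with TCDD values of -0.28, -0.15 and -0.30 below the DMSO values of -0.15, -0.13 and -0.089. The difference was -0.12 ± 0.04 (95% interval -0.21 to -0.031, adjusted p = 0.0869). Without TCDD replicate 2 it was -0.17 and passed (adjusted p = 0.00943). Replicate 2 was also the one TCDD array at 60 hpf analysed on the first image analysis day, and on that day the difference was -0.031 with 1 array against 3. On Agilent it was -0.061 ± 0.065 (adjusted p = 0.951).

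miR-10b differed by -0.11 ± 0.05 on Exiqon at 60 hpf (adjusted p = 0.192), and the remaining differences on that platform were between -0.082 and 0.051. On Agilent the members differed by -0.061 to 0.14 at 60 hpf. A p that misses the threshold does not show equal levels: the widest 95% intervals, those of miR-196b on Agilent, reached 0.38 on the log2 scale at 36 hpf, a 1.30-fold difference, while on Exiqon no interval went beyond 0.22, a 1.16-fold difference. The platforms' scales differ, so each of these bounds holds only on its own platform's scale and they are not compared.

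**Figure D5:**
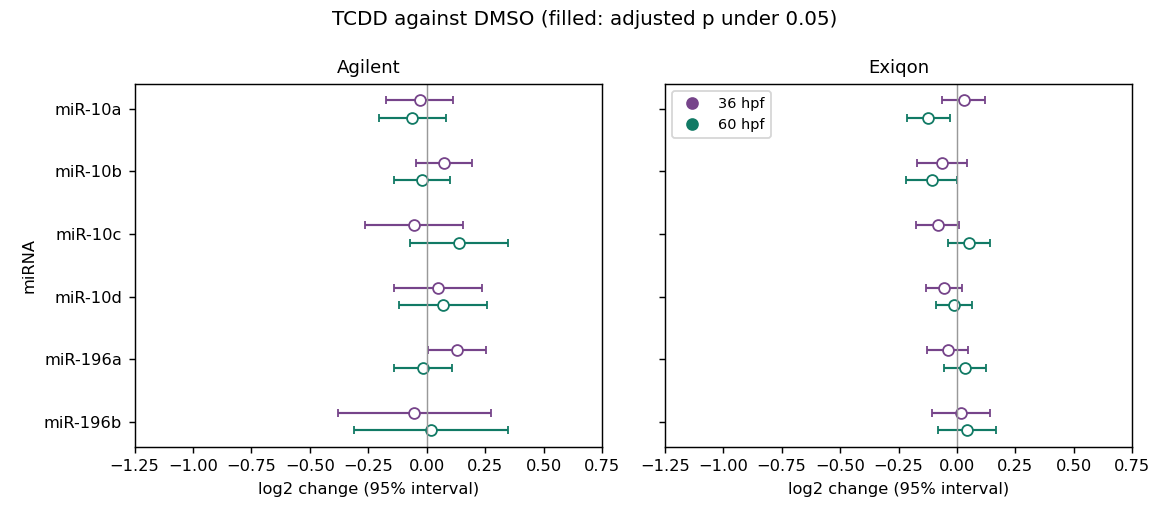
Difference between TCDD and DMSO embryos (log2, horizontal axes) at 36 and 60 hpf on each platform, on the same scale as the stage changes; bars are 95% intervals. No point is filled, as none passed the threshold, and all differences lie between -0.12 and 0.14.

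The stage change itself did not differ past the threshold between DMSO and TCDD embryos for any member. For this interaction 0 of 6 passed on Agilent (background 1.49%) and 0 of 6 on Exiqon (background 2.69%). An unadjusted p under 0.05 was found for 0 and 2 members, against 11 of 134 and 34 of 223 tested miRNAs. The Exiqon pair were miR-10a, at -0.15 ± 0.06 (adjusted p = 0.267), and miR-10c, at 0.13 ± 0.06 (adjusted p = 0.319). Without TCDD replicate 2 at 60 hpf the miR-10a value was -0.20 and passed (adjusted p = 0.0366). So the calls in 1 exposure only, of miR-10b and miR-10c on Agilent and of miR-10a, miR-10c and miR-196a on Exiqon, are not shown to differ between exposures.

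In the order of the 4 group means on Agilent, miR-196a ran from TCDD at 36 hpf (-1.21 ± 0.01, SD, n = 3) through DMSO at 36 hpf (-1.34 ± 0.07) and DMSO at 60 hpf (-2.01 ± 0.03) to TCDD at 60 hpf (-2.03 ± 0.10). The neighbours of equal stage did not differ past the threshold, and those of different stage did. miR-10d had the reverse order of stages, from TCDD at 60 hpf (-1.74 ± 0.15) and DMSO at 60 hpf (-1.81 ± 0.12) down to TCDD at 36 hpf (-2.18 ± 0.02) and DMSO at 36 hpf (-2.23 ± 0.11).

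The passenger strands, the strands that are mostly discarded when a miRNA matures, were on the arrays for miR-10a and miR-10d. miR-10a* fell on Agilent by 0.25 ± 0.06 in DMSO (adjusted p = 0.00293) and 0.39 ± 0.06 in TCDD embryos (adjusted p = 0.000119). It was detected on 3 of 3 arrays of each 36 hpf group and on 1 of 3 arrays of each 60 hpf group, so it entered the test through the groups where it was high, and nothing is read from its direction. On Exiqon its changes were -0.046 and -0.024 and did not pass. miR-10d* was detected on none of the 12 Agilent arrays, and on Exiqon it rose by 0.10 ± 0.03 in each exposure (adjusted p = 0.0201 in DMSO and 0.0189 in TCDD embryos). The median change of all tested Exiqon miRNAs was 0.11 in DMSO and 0.14 in TCDD embryos, so this rise did not exceed the median. Neither strand passed for TCDD against DMSO. A pair of Agilent probes for miR-10d of the pufferfish Fugu were detected on no array.

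miR-99 and miR-100, which resemble miR-10 in sequence and lie outside the Hox clusters, rose between the stages on both platforms. miR-99 rose by 1.47 ± 0.09 in DMSO and 1.52 ± 0.09 in TCDD embryos on Agilent, and miR-100 by 0.93 ± 0.09 and 0.98 ± 0.09 (highest adjusted p = 1.28e-06 by limma). On Exiqon miR-99 rose by 0.52 ± 0.05 in each exposure, and miR-100 by 0.73 ± 0.07 and 0.67 ± 0.07. As first processed, the change of miR-10d lay above those of miR-10a, miR-10b and miR-10c and below those of these relatives on both platforms. With the Exiqon sample channel alone it was 0.021 in DMSO and -0.023 in TCDD embryos, below miR-10c at 0.096 and 0.048. No test of miR-10d against miR-99 or miR-100 was run.

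By the root mean square difference of mean-centred log2 values over 12 arrays, the miRNA whose pattern was nearest to that of miR-10d was miR-26b on both platforms, at 0.063 on Agilent and 0.036 on Exiqon. miR-26b changed by 0.36 in each exposure on Agilent and by 0.40 on Exiqon. The next were miR-140* on Agilent (0.072) and miR-499 on Exiqon (0.048). miR-196a was nearest to miR-19a (0.086) and miR-153b (0.087) on Agilent and to miR-130c (0.033) and miR-20a* (0.040) on Exiqon.

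miR-10a was nearest to miR-301c (0.065) and miR-142a-3p (0.069) on Agilent, and on Exiqon to probes named miR-19b and miR-19b/miR-19c, both at 0.047. miR-10b was nearest to miR-25 (0.057) and miR-457a (0.064) on Agilent and to miR-133b (0.039) and miR-15c (0.042) on Exiqon. miR-10c was nearest to miR-93 (0.039) and miR-200b (0.064) on Agilent and to miR-210 and miR-30c on Exiqon (0.048 and 0.049). miR-196b was nearest to miR-20b (0.14) and miR-203b (0.14) on Agilent and, on Exiqon, to its paralogue miR-196a (0.049), ahead of miR-20a* (also 0.049). These distances describe shared array-to-array patterns, to which the scaling of each array contributes.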

How the data were processed

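The Agilent intensity deposited by the authors is a background-subtracted spot signal from Feature Extraction 9.5, per the submitters' processing notes and the file headers, with no scaling between arrays. The Exiqon files hold spot and local background intensities of the sample (Hy3) and pooled reference (Hy5), made, per the file headers, with version 8.0.1 of an image program. The log2 ratios that the authors deposited for Exiqon correlated with the ratios computed here at 0.908 to 0.972, with array medians of -0.13 to 0.26, and its normalization and centring stay unknown.

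Agilent spots flagged as outliers (3.05% to 6.39%) were left out. Signals were scaled to each array's 75th percentile, taken over 186 probes that every array detected, floored at 0.0273 and averaged per probe on the log2 scale. Exiqon spots flagged by the program (4.51% to 18.3%) were dropped, and normexp background correction (offset 50) was followed by loess within arrays. Exiqon detection asked for a sample signal 2 background SDs above background in at least 0.5 of the spots. The brightest probe stood for a miRNA. Testing asked for its detection on the 3 arrays of some group.

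Group means were fitted over 12 arrays per platform with limma 3.58.1 in R 4.3.3, two-sided. The scripts were tested on simulated data. Same-numbered replicates deviated together in every pair (r = 0.22 to 0.27) only for Agilent TCDD and DMSO at 36 hpf, and the pairing comes from that correlation and not from the labels. Replicate 1 of all 4 Agilent groups shared a slide, and whether the slide contributes to that correlation was not tested. The text names the 6 members, the lists of relatives and passenger strands, and the 2 nearest miRNAs per member and platform. Members and lists were chosen with earlier results of these data known. The alternatives are given in the closing section.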

Additional observations from a re-analysis of the deposited data

How the results depend on the processing

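Counts of members called and of unequal pairs stayed within 1.5 times of those reported under the alternatives, except on Exiqon. There the sample channel alone, which was also quantile normalized, left 0 of the 2 members called between stages in DMSO embryos. With 1 array left out that count ranged from 1 to 2, and over all alternatives from 0 to 3. The counts for TCDD at 60 hpf and for the interaction ranged from 0 to 1. Unequal pairs numbered 3 to 5 on Agilent and 4 to 6 on Exiqon. The cause of these changes in count was not tested. With the replicate number as a block, 0 members passed for TCDD against DMSO at 36 hpf on Agilent, 5 in each exposure between stages there, and 2 and 3 on Exiqon, so no count changed. Between same-numbered samples of the comparisons other than Agilent 36 hpf, correlations were -0.28 to 0.29 and not all above 0.1. Over all tested miRNAs, higher calls made up 58.1% and 61.5% of Agilent stage calls in DMSO and TCDD embryos, against 42.7% and 42.5% with quantile normalization and 40.5% and 43.6% with a 75th percentile over all probes. On Exiqon they made up 72.7% and 75.3%, against 93.1% and 95.5% with median centring and, in TCDD embryos, 54.5% with the sample channel alone. The median change of all tested miRNAs was 0.31 and 0.43 with median centring. Over all tested miRNAs the Exiqon calls for TCDD at 60 hpf numbered 0 to 46, against 15 as reported.

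Most sign changes were of values that had not passed as first processed, but some of these values passed with the new sign. For Agilent TCDD against DMSO at 36 hpf, miR-10a became 0.0057 with outlier spots kept and miR-196b 0.0050 on the mean of all probes. At 60 hpf, miR-196b became -0.15 with normexp, -0.0043 with quantile normalization and -0.041 with the percentile over all probes, and miR-10d -0.0014 with quantile normalization. For the Agilent interaction, miR-196b became -0.093 with normexp, miR-10d -0.045 with quantile normalization and miR-10a 0.045 on the mean of all probes. Among Agilent pairs, miR-10a minus miR-10c became 0.28 and miR-196a minus miR-196b 0.043 with quantile normalization, and miR-10b minus miR-10c -0.034 on the mean of all probes. Of these, only miR-10a minus miR-10c passed (permutation adjusted p = 0.007).

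On Exiqon, median centring turned the stage changes in DMSO embryos to 0.36 for miR-10a, 0.058 for miR-196a and 0.045 for miR-196b, and in TCDD embryos to 0.35 for miR-10a, 0.52 for miR-10b, 0.20 for miR-196a and 0.18 for miR-196b. Of these stage changes, those of miR-10b and miR-196a in TCDD embryos passed (adjusted p = 0.0112 and 0.0207). Median centring also turned miR-10a for TCDD at 36 hpf to -0.13 and the miR-10b interaction to 0.091. The pair changes turned to 0.097 for miR-10a minus miR-10c, 0.21 for miR-10b minus miR-10c and 0.016 for miR-196a minus miR-196b. The sample channel alone turned the stage changes to -0.20 for miR-10b in DMSO and -0.023 for miR-10d in TCDD embryos, TCDD at 60 hpf to -0.15 for miR-10c, -0.047 for miR-196a and -0.15 for miR-196b, the interaction to -0.048 for miR-10c, -0.044 for miR-10d, -0.014 for miR-196a and -0.17 for miR-196b, and miR-10c minus miR-10d to 0.073. The deposited table turned miR-10b between stages in DMSO to -0.056, miR-196b for TCDD at 60 hpf to -0.0062 and its interaction to -0.050. Keeping flagged spots turned miR-10c for TCDD at 60 hpf to -0.0097 and the miR-196b interaction to -0.0057. With image analysis day as a block, miR-196b became -0.027 for TCDD at 36 hpf and -0.046 at 60 hpf, miR-10d 0.033 and miR-196a -0.027 at 60 hpf, miR-10b 0.00013 between stages in TCDD embryos, and the miR-196b interaction -0.019. On the first day only, miR-196b was -0.025 at 36 hpf and -0.050 at 60 hpf, miR-10d 0.038 and miR-196a -0.031 at 60 hpf, and the miR-196b interaction -0.026.

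With 1 Agilent array left out, TCDD against DMSO at 36 hpf ranged from -0.062 to 0.014 for miR-10a, -0.14 to 0.040 for miR-10c and -0.19 to 0.13 for miR-196b. At 60 hpf it ranged from -0.11 to 0.013 for miR-10a, -0.046 to 0.016 for miR-10b, -0.0054 to 0.15 for miR-10d, -0.050 to 0.038 for miR-196a and -0.065 to 0.087 for miR-196b. The interaction ranged from -0.078 to 0.044 for miR-10a, -0.054 to 0.098 for miR-10d and -0.11 to 0.21 for miR-196b, and miR-196a minus miR-196b from -0.16 to 0.028. With 1 Exiqon array left out, miR-196b ranged from -0.025 to 0.057 for TCDD at 36 hpf, -0.018 to 0.090 at 60 hpf, -0.092 to 0.017 between stages in TCDD embryos and -0.036 to 0.072 for the interaction. miR-10d ranged from -0.039 to 0.014 for TCDD at 60 hpf and miR-10b from -0.030 to 0.033 between stages in DMSO embryos. Signal over background limits miR-196b on Agilent, which was at the floor on part of its spots.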
